A study of Mus musculus with 18 samples.

Results

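The secreted muscle factors examined here are 10 genes for myokines and stress hormones, proteins that muscle can release into the blood or its surroundings. They were chosen by name (Ostn, Il15, Fndc5, Metrnl, Apln, Bdnf, Fgf21, Gdf15, Il6 and Lif) from the 23420 genes of the RNA-seq table. All 10 had a row, and 6 of them were among the 13178 genes that reached a mean normalized read count of at least 10 and were tested. Hindlimb muscle was taken from female C57BL/6J mice at 2 months (2-m), 20 months (20-m) and 28 months (28-m) of age, with no other treatment or allele in any group. RNA-seq was made from 3 mice at each age, 1 library a mouse, while methylated DNA from hindlimb muscle and from spleen T cells was captured and sequenced from 1 pool of 3 mice at each age. The comparison of the 3 ages asks how expression in muscle differs in aged and very old animals.

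Myokines carry signals from muscle to fat, liver, bone, vessels and nerve, or act on the fibre that made them. Some, such as those of the FGF and TGF-beta families, are switched on by mitochondrial or nutrient stress through the integrated stress response, and others follow contraction, fibre type or nerve supply. Interleukin-6 and LIF act through the shared receptor chain gp130, which signals through STAT3.

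The 9 libraries held 20203833 to 71115244 reads on genes, and 1 read was worth 0.545 to 2.23 normalized counts. The ribosomal RNA precursor gene Rn45s took 24.0 to 30.4% of these reads in the libraries numbered 1 and 2 of each age and 8.81 to 10.4% in those numbered 3, so results were also computed from numbers 1 and 2 only. The 9 myofibre markers summed to 5618702 to 7123637 normalized counts over the 9 libraries, against 88.1 to 339 for the 6 T-cell markers. Fibroblast markers (6 genes) summed to 41886 to 90658 in 2-m muscle, 9481 to 10943 in 20-m muscle and 10450 to 14266 in 28-m muscle. In bulk tissue, fewer cells of a type and less RNA per cell cannot be told apart.

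Ostn, the gene for osteocrin (musclin), was the member that changed most with age. Osteocrin is a small peptide hormone of muscle and bone that binds the natriuretic peptide clearance receptor. The 3 2-m libraries had 225, 132 and 352 normalized counts, the 20-m libraries 4405, 4731 and 4282, and the 28-m libraries 4949, 2217 and 3916. Every aged library was above every 2-m library, a pattern that 10.5% of all tested genes also showed, and the lowest aged value belonged to 28-m library 2.

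The mean of Ostn went from 236 ± 110 (SD, n = 3) at 2 months to 4473 ± 232 (SD, n = 3) at 20 months and 3694 ± 1380 (SD, n = 3) at 28 months. In the limma fit over all genes, the rise from 2 to 20 months was 4.35 on the log2 scale (SE 0.31, adjusted p = 7.69e-06 by Benjamini-Hochberg), or 20.3-fold with a 95% interval of 12.8 to 32.3. This was the 5th largest rise of the 13178 genes tested. From 2 to 28 months the rise was 3.99 (SE 0.31, adjusted p = 8.08e-06, limma), or 15.9-fold, with a 95% interval of 3.33 to 4.66 on the log2 scale. Between 28 and 20 months Ostn differed by -0.35 (SE 0.31, adjusted p = 0.741, limma), with a 95% interval of -1.02 to 0.32 on the log2 scale. The age groups overlapped in this last comparison, so no direction was drawn between the 2 older ages.

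The 2 rises share the 2-m libraries and are not independent. With 20-m and 28-m muscle combined, Ostn was 4.17 higher than at 2 months on the log2 scale (SE 0.27, adjusted p = 1.63e-06, limma), and an exact two-sided permutation test of the means gave p = 0.0119, the smallest that 3 against 6 libraries can give. Ostn was called in all 25 alternative analyses from 2 to 20 months and in all 25 from 2 to 28 months, with log2 changes of 3.98 to 4.72 and 3.63 to 4.34. Using libraries numbered 1 and 2 only, the changes were 4.72 and 4.26.

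**Figure D1:**
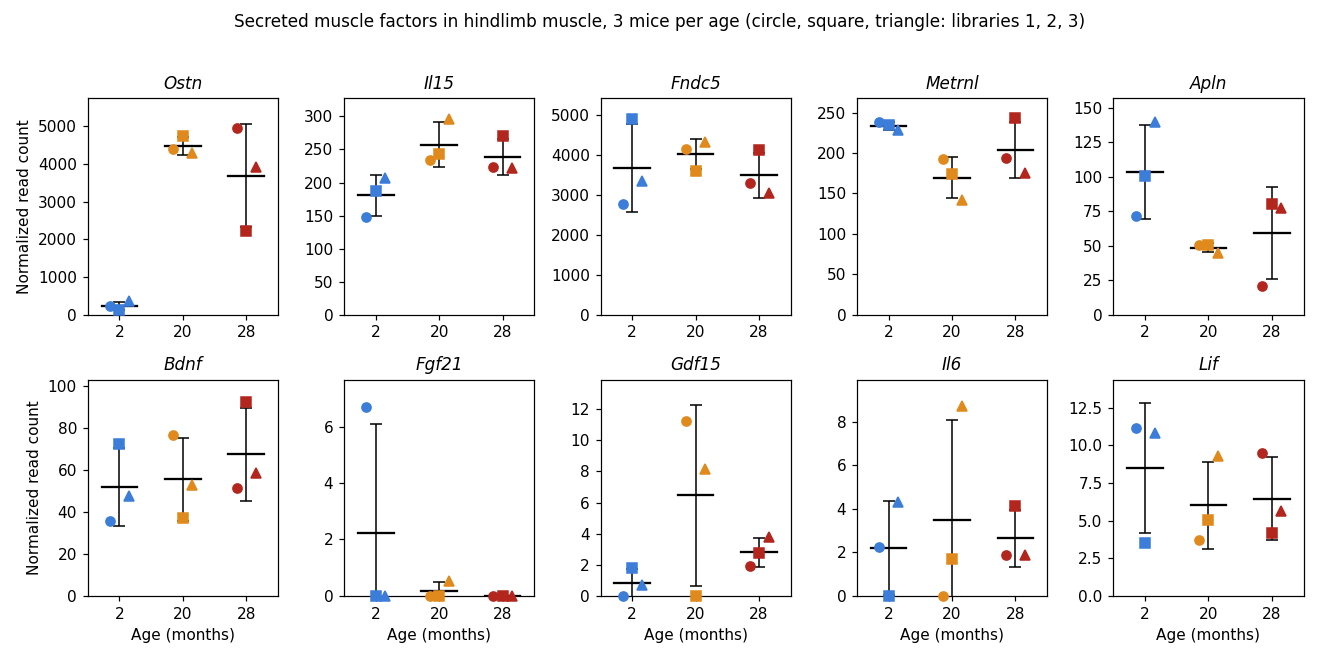
Normalized read count of each of the 10 genes (y axis, linear, a scale of its own in each panel) against age in months (x axis). Points are single mice, horizontal lines the means and whiskers the SD of 3 mice, drawn only above 0; the 6 aged Ostn values lie between 2217 and 4949 and the 2-m values between 132 and 352.

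Ostn lies at chr16:27307641-27351209 on the plus strand (GRCm38, the mm10 build), with 5 exons. Of its 1268 exon bases, 184 are shared with annotated genes of the other strand, the lncRNA Gm32312 and the pseudogene Gm15970, which were not analysed here; counting is not stated to use strand, so reads in the shared bases cannot be told apart. Per kb of exon, Ostn stood at 186 normalized counts at 2 months, 3527 at 20 months and 2913 at 28 months. Its mean per kb over all libraries was above that of 93.8% of the tested genes with a gene model. In 20-m and 28-m muscle it had the highest level per kb of the 10 members, while in 2-m muscle Fndc5, at 1328 normalized counts per kb, was higher.

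Slow-fibre markers rose at the ages at which Ostn rose, and most fibroblast markers fell. The 7 slow-fibre genes, which encode the contractile proteins and calcium pump of type I fibres, all rose from 2 to 20 months and from 2 to 28 months (medians 2.65 and 2.74 on the log2 scale, against -0.02 and -0.01 over all tested genes). Their summed count was 12890 to 115123 in 2-m muscle, 163266 to 289784 in 20-m muscle and 202374 to 255812 in 28-m muscle. Among the 2-m libraries, number 2 had the highest slow-fibre sum, 115123, and the lowest Ostn value, 132. With libraries numbered 1 and 2 only, the calls of 6 of these 7 genes, all but Atp2a2, were lost, but the lowest log2 change over all 25 alternatives at 20 months was still 1.51 for Myl3 and 1.69 to 2.14 for the other 6. The calls of Tnni1, Tnnt1 and Tnnc1 were also lost with DESeq2 on the recovered reads at both ages, and with edgeR those of Tnni1 and Tnnc1 at 20 months and of all 3 at 28 months. Of the fibroblast markers, 4 of 6 fell at both ages, where 7.13% and 6.24% of all tested genes fell. They were Col1a1, Col1a2, Col3a1 and Dpt, while Pdgfra and Lum were not called. Col1a1, the main collagen of fibroblasts, fell by 3.50 and 3.34. The 6 markers of bone and cartilage, tissues that also make osteocrin, summed to 381 to 4284 in 2-m muscle. The sums were 550 to 789 in 20-m muscle and 351 to 570 in 28-m muscle, within or below the 2-m range. Chad alone gave a mean of 682 of 697 normalized counts at 20 months and 478 of 487 at 28 months. The part of fibre type and of other cell types in the rise of Ostn was not tested.

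**Figure D2:**
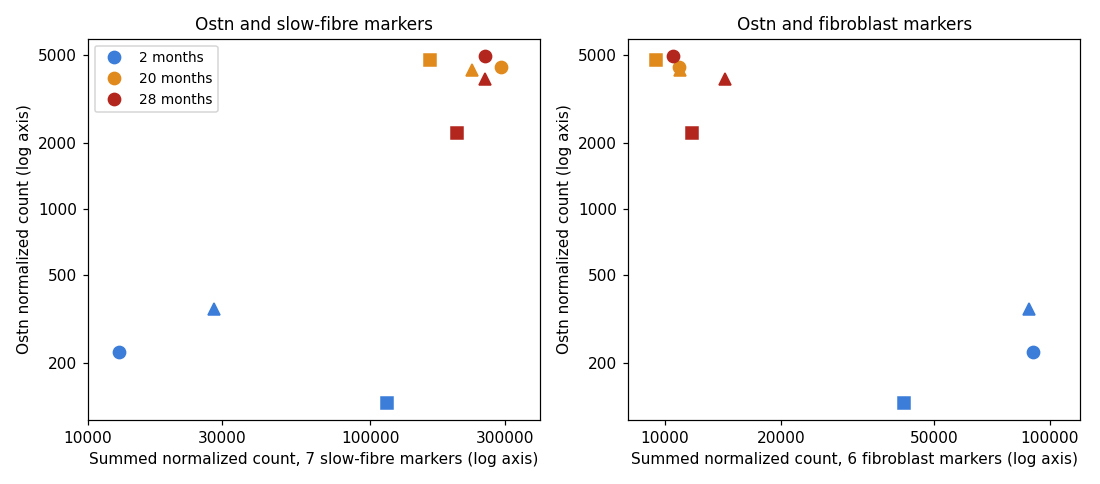
Ostn normalized count (y axis, log) against the summed normalized count of 7 slow-fibre markers (left x axis, log) and of 6 fibroblast markers (right x axis, log), 1 point per library. The aged libraries sit apart from the 2-m libraries on all 3 measures, and the 2-m library with most slow-fibre signal (115123) had the least Ostn (132).

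The receptors of osteocrin are those of the natriuretic peptides. Npr3, the clearance receptor that osteocrin occupies, had 508, 1485 and 395 normalized counts at 2 months, 1870, 1424 and 1248 at 20 months and 1345, 1409 and 1406 at 28 months. It rose from 2 to 20 months by 1.16 (SE 0.35, adjusted p = 0.0407, limma), but 2-m library 2 lay within the aged range, and the call held in 11 of 25 alternatives. From 2 to 28 months the value was 1.05 (SE 0.35, adjusted p = 0.0658, limma). Npr1, the guanylyl cyclase receptor of atrial and brain natriuretic peptide, fell by 0.48 (SE 0.13, adjusted p = 0.0235) at 20 months and by 0.43 (SE 0.13, adjusted p = 0.0424) at 28 months in the limma fit, calls that held in 21 and 13 of 25 alternatives. Npr2, the receptor of C-type natriuretic peptide, gave -0.02 and -0.18 with adjusted p = 0.905 and 0.202 (limma).

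As a description, the tested genes whose log2 values followed Ostn most closely over the 9 libraries were Rhpn2 (Pearson r 0.990), Rab3gap1 (0.990) and Pde7a (0.989). Pde7a, a phosphodiesterase that breaks down cyclic AMP, averaged 1186, 3431 and 2823 normalized counts at 2, 20 and 28 months. The 9 points share the 3 age groups, so any gene with a large step between 2 and 20 months ranks high on this measure.

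Il15 encodes interleukin-15, a cytokine of muscle and immune cells that sustains natural killer and memory T cells. Its values were 147, 187 and 207 normalized counts at 2 months, 234, 243 and 296 at 20 months and 224, 271 and 223 at 28 months. All 6 aged libraries were above all 3 2-m libraries, as in the 10.5% of tested genes given for Ostn. The step was small beside that of Ostn.

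With both older ages together, Il15 was 0.47 higher than at 2 months (SE 0.15, adjusted p = 0.0441, limma), or 1.38-fold with a 95% interval of 1.10 to 1.73, and the exact two-sided permutation test gave p = 0.0119. That call held in 8 of 24 alternatives and was lost when any 1 library other than 2-m library 3 was left out, with an adjusted p of 0.203 without 2-m library 1. Taken alone, neither 20 months (0.52, SE 0.17, adjusted p = 0.0585) nor 28 months (0.41, SE 0.17, adjusted p = 0.137) passed the limma threshold against 2 months. The 20-m value was called in 4 of 25 alternatives, among them the batch term for the libraries numbered 3, with adjusted p over all 25 of 0.0369 to 0.412 (limma, edgeR or DESeq2), and the 28-m value in none. Its receptor chain Il15ra, which presents the cytokine to neighbouring cells, gave -0.51 and -0.40 with adjusted p = 0.151 and 0.294 (limma), and the shared chain Il2rg gave 0.13 and 0.32 with adjusted p = 0.735 and 0.409. Il2rb, the signalling chain of lymphocytes, was under the filter at means of 1.73, 0.363 and 2.81 normalized counts. Il15 lies at chr8:82331624-82403252 on the minus strand.

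Of the 6 tested members, 1 (Ostn) was called from 2 to 20 months, where 16.6% of all tested genes were called, and 1 (Ostn) from 2 to 28 months, where 13.8% were. With both older ages together 2 were called, Ostn and Il15, both upward, against 20.1% of tested genes. None was called between 28 and 20 months by limma, where 0.379% of genes were, and none had an unadjusted p under 0.05 or was called by edgeR or DESeq2, while 10.6% of genes had such a p. By the rule of a fold change over 2 with an unadjusted p under 0.05, 2 members (Ostn and Apln) passed at 20 months, where 5.17% of tested genes did, and 1 (Ostn) at 28 months, where 5.14% did. With both older ages together the rule passed 1 member (Ostn) and 5.11% of genes, and between 28 and 20 months no member and 1.31% of genes. The median change of the 6 was 0.13, 0.17 and -0.02 in the 3 comparisons of 2 ages, against -0.02, -0.01 and 0.00 over all tested genes.

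**Figure D3:**
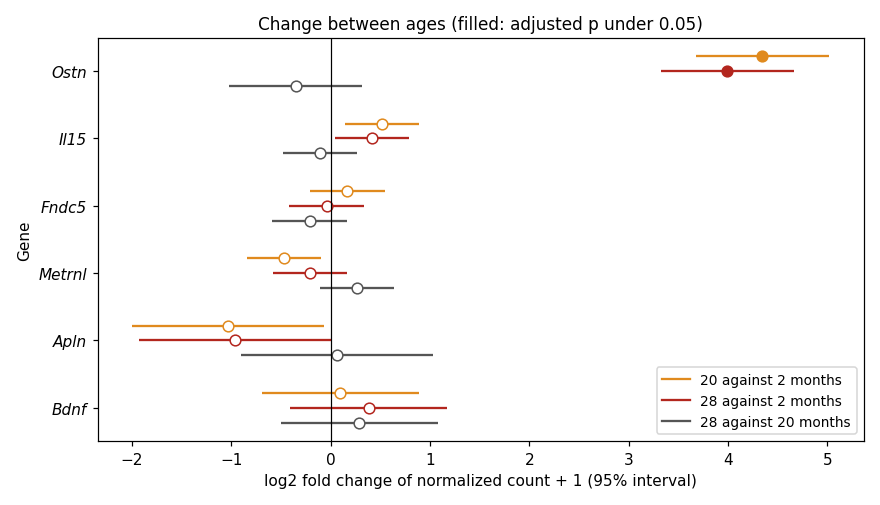
Change of the 6 tested genes on the log2(normalized count + 1) scale (x axis) in 3 comparisons of ages, with 95% intervals from the limma fit; filled points had an adjusted p under 0.05. The intervals of Ostn against 2 months run from 3.68 to 5.01 and from 3.33 to 4.66, and those of Il15 reach down to 0.14 and 0.04.

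Apln encodes apelin, a peptide of muscle, fat and endothelium that acts on vessels and on muscle metabolism. The 2-m libraries had 71.3, 100 and 139 normalized counts, the 20-m libraries 50.4, 50.6 and 44.7, and the 28-m libraries 20.9, 80.1 and 77.4. All 20-m values were below all 2-m values, as in 17.6% of tested genes, while the 28-m values ranged from below the 20-m group into the 2-m group. The log2 change was -1.03 at 20 months (SE 0.45, adjusted p = 0.136) and -0.96 at 28 months (SE 0.45, adjusted p = 0.180), neither past the limma threshold, and the 20-m value was called in 4 of 25 alternatives. With both older ages together its adjusted p was 0.0894 (limma), and it was called in 4 of 24. The 9 libraries held 531 Apln reads in all, and the 95% interval at 20 months ran over folds of 0.251 to 0.958. Apln lies at chrX:48025146-48034853 on the minus strand.

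The apelin receptor gene fell at both ages. Aplnr, a G protein-coupled receptor of endothelium and other cells, had 484, 603 and 382 normalized counts at 2 months, 48.6, 128 and 114 at 20 months and 112, 173 and 153 at 28 months. All 20-m values were below all 2-m values, as in 17.6% of tested genes. The 28-m values were also below them, and the share of genes with that pattern at both ages was not computed. It fell by 2.41 at 20 months (SE 0.32, adjusted p = 0.000375) and by 1.74 at 28 months (SE 0.32, adjusted p = 0.00367) in the limma fit, and both calls held in all 25 alternatives. The 6 endothelial markers, in whose cells Aplnr is known to be expressed, summed to 11283 to 15008 normalized counts at 2 months. The sums were 11774 to 12948 at 20 months and 12606 to 13831 at 28 months, so they overlapped between the ages. Of 6 adipocyte and 6 fibroblast markers, 4 and 4 fell at 20 months, where 7.13% of tested genes fell. At 28 months 1 and 4 fell, where 6.24% did. Which cells carried Aplnr was not tested.

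Metrnl encodes meteorin-like, a factor that exercise and cold raise and that acts on fat and immune cells. It had 238, 234 and 228 normalized counts at 2 months, 192, 174 and 142 at 20 months and 194, 243 and 176 at 28 months. The 20-m group was below the 2-m group without overlap, as in 17.6% of tested genes, and the 28-m group spanned both. The change was -0.47 at 20 months (SE 0.17, adjusted p = 0.0804) and -0.21 at 28 months (SE 0.17, adjusted p = 0.470), neither past the limma threshold; it was called at 20 months in 1 of 25 alternatives, with a batch term for the libraries numbered 3. Kit, a receptor tyrosine kinase to which meteorin-like can bind, gave 0.06 and -0.66 with adjusted p = 0.923 and 0.246 (limma). Metrnl lies at chr11:121702427-121717389 on the plus strand.

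Fndc5 encodes the membrane protein from which irisin is cut, and it was abundant at every age. Its values were 2771, 4902 and 3335 normalized counts at 2 months, 4149, 3597 and 4323 at 20 months and 3296, 4134 and 3054 at 28 months. The 2-m libraries alone spanned the whole aged range. Its change was 0.17 (SE 0.17, 95% interval -0.21 to 0.55) at 20 months and -0.04 (SE 0.17, 95% interval -0.42 to 0.33) at 28 months, so a change of 2-fold in either direction lay outside both intervals. The irisin receptor subunit Itgav rose by 0.41 (adjusted p = 0.0410) and 0.47 (adjusted p = 0.0252) in the limma fit, calls that held in 14 and 18 of 25 alternatives, while its partner Itgb5 gave 0.24 and 0.13 with adjusted p = 0.0558 and 0.333. Fndc5 lies at chr4:129136870-129144593 on the plus strand.

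Bdnf encodes brain-derived neurotrophic factor, which in muscle acts on nerve endings and on fat oxidation. It had 35.7, 72.2 and 47.6 normalized counts at 2 months, 76.6, 37.1 and 52.8 at 20 months and 51.2, 92.5 and 58.5 at 28 months. The groups overlapped throughout, and the log2 changes of 0.10 and 0.38 had an SE of 0.36 each (adjusted p = 0.887 and 0.533, limma). The receptor genes Ntrk2, the full-length form of which is the kinase TrkB, Ngfr, the low-affinity receptor p75, and Sort1, which sorts the precursor, also missed the threshold, with adjusted p of 0.121 to 0.785 over both ages. Bdnf has 9 annotated starts at chr2:109674700-109727043 on the plus strand, and the table does not separate them.

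Of 19 genes for proteases that process BDNF, FNDC5 or natriuretic peptides, 16 were tested, and 1 rose and 1 fell at 20 months, beside 9.42% and 7.13% of all tested genes. Pcsk5, a proprotein convertase, fell by 1.22 (adjusted p = 0.00351) at 20 months and by 1.47 (adjusted p = 0.00111) at 28 months, while Ece1, the endothelin-converting enzyme, rose by 0.48 (adjusted p = 0.00506) at 20 months, all in the limma fit. The list's medians were -0.09 and -0.01, beside -0.02 and -0.01 over all tested genes. Furin, a convertase known to cut proBDNF, named here outside the rule, gave 0.06 and -0.15 with adjusted p = 0.832 and 0.579.

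The other 4 members were too low to test. Fgf21, a hormone of liver and stressed muscle that raises energy use, had 3 reads in 2-m library 1, 1 read in 20-m library 3 and none in the other 7 libraries. With a limit of 3 reads for a count of 0, Fgf21 could not be told from absent below 1.63 to 6.69 normalized counts, depending on the library. Its co-receptor Klb, which FGF21 needs for binding, was also under the filter, at 16.3, 2.05 and 4.25 normalized counts on average at 2, 20 and 28 months. The receptor gene Fgfr1 gave 0.07 and -0.09 with adjusted p = 0.711 and 0.644, and Fgfr4 fell at 28 months by 1.66 (SE 0.32, adjusted p = 0.00471, limma).

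Gdf15, a stress hormone that curbs appetite through the hindbrain, had 0, 1 and 1 reads at 2 months, 6, 0 and 15 at 20 months and 1, 2 and 2 at 28 months. The 20-m reads came from libraries 1 and 3, and 20-m library 2 had none. The 28-m values of 1.90, 2.76 and 3.77 normalized counts were above the 2-m values of 0, 1.76 and 0.722, but all of them were within the limit of 3 reads of their library. No analysis without the filter called it at 20 months (adjusted p = 0.322 by limma and 0.243 by edgeR), and DESeq2 gave no adjusted p. Its brain receptor Gfral had no read in any library, and its partner kinase Ret fell by 0.96 (adjusted p = 0.0184) at 20 months and by 1.17 (adjusted p = 0.00750) at 28 months in the limma fit. Its 20-m call held in 20 of 25 alternatives and was lost without 2-m library 1, 2-m library 3 or 20-m library 2.

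Il6, which contracting muscle releases, had 1, 0 and 6 reads at 2 months, 0, 1 and 16 at 20 months and 1, 3 and 1 at 28 months. Lif, a related cytokine that promotes myoblast growth, had 5, 2 and 15 reads at 2 months, 2, 3 and 17 at 20 months and 5, 3 and 3 at 28 months. In both genes the highest counts came from the deepest libraries, the 2-m and 20-m libraries numbered 3, and the age groups overlapped in normalized counts. Exact two-sided permutation tests between pairs of ages gave p = 0.900 to 1 for Il6 and 0.400 to 0.700 for Lif, where the smallest possible is 0.1. No change in these genes was detectable at this depth.

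The receptor chains for these cytokines were expressed at far higher counts. Il6st, which encodes gp130, averaged 11215, 11880 and 10983 normalized counts at 2, 20 and 28 months, and Lifr 3252, 3271 and 3200, with changes between -0.03 and 0.09. Il6ra gave 0.70 and 0.64 (adjusted p = 0.0552 and 0.0883), and Osmr, the oncostatin M receptor, rose at 28 months by 0.68 (SE 0.18, adjusted p = 0.0219, limma), a call held in 20 of 25 alternatives. In all, of the 24 receptor genes 21 were tested. At 20 months 2 rose and 3 fell, and at 28 months 2 rose and 4 fell, with list medians of 0.00 and -0.05. In all tested genes 16.6% and 13.8% were called at these ages.

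**Figure D4:**
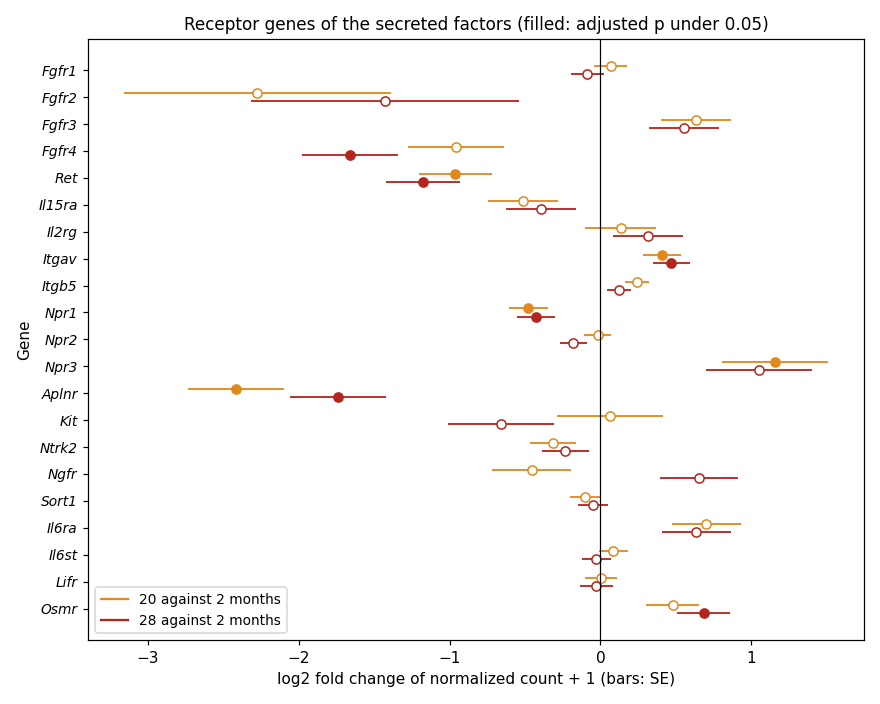
Change of the 21 tested receptor genes at 20 and at 28 months against 2 months on the log2(normalized count + 1) scale (x axis); bars are the SE and filled points had an adjusted p under 0.05 in the limma fit. Aplnr lies furthest left among the filled points at -2.41 and -1.74, and Npr3 furthest right at 1.16.

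The integrated stress response, the route by which Fgf21 and Gdf15 are usually induced, held calls in both directions. Of 41 tested genes, 3 rose and 2 fell at 20 months and 2 rose and 4 fell at 28 months, with medians of 0.03 and -0.01. The calls, 5 and 6 of 41, stand beside 16.6% and 13.8% of all tested genes, so the share called was near the background. Atf3, a stress-induced repressor, rose by 1.11 (SE 0.25, adjusted p = 0.0109) and 1.21 (SE 0.25, adjusted p = 0.00753), while Atf4, the central activator of the response, named after its values were seen, fell by 0.39 (adjusted p = 0.00432) and 0.55 (adjusted p = 0.000496). Ddit4, an inhibitor of mTORC1 that also follows glucocorticoids and fasting, rose at 20 months by 0.84 (adjusted p = 0.0103) but fell below the 2-m level at 28 months, by 0.96 (adjusted p = 0.00546), and was lower at 28 than at 20 months by 1.80 (SE 0.19, adjusted p = 0.000713, limma). Vldlr rose at 20 months by 0.42, Aldh18a1 fell by 0.85 at both ages, Stc2 fell at 28 months by 1.00 and Trib3 rose at 28 months by 1.19 (adjusted p of 0.0182 to 0.0483, limma). The 20-m calls of Vldlr and Aldh18a1 held in 18 and 13 of 25 alternatives, that of Stc2 in 20 of 25 and that of Trib3 in 7 of 24.

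Genes of the gp130 and STAT3 route, its kinases and receptor chains as well as genes it induces, were called in both directions. Of 19 tested, 2 rose and 4 fell at 20 months, where 9.42% of all tested genes rose and 7.13% fell, and 4 rose and 5 fell at 28 months, where 7.53% rose and 6.24% fell. The list's medians were 0.09 and 0.19, beside -0.02 and -0.01 over all tested genes. Cish and Socs2, feedback inhibitors of cytokine receptors that also answer growth hormone, fell by 3.07 and 0.80 at 20 months and by 2.44 and 0.92 at 28 months. Pim1, a survival kinase, fell by 0.98 and 1.16, while Fos, an immediate early gene, rose by 1.76 and 1.23, all with an adjusted p of at most 0.00644 in the limma fit. Socs3, the usual feedback inhibitor of gp130, named after its values were seen, gave 0.04 and 0.62 with adjusted p = 0.934 and 0.130.

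Of 28 tested regulators of metabolism and activity, 10 rose and none fell at 20 months, where 9.42% of all tested genes rose and 7.13% fell, and 7 rose and 2 fell at 28 months, where 7.53% rose and 6.24% fell. Foxo1, the transcription factor of fasting and atrophy, rose by 1.13 (SE 0.11, adjusted p = 3.93e-05) and 0.77 (SE 0.11, adjusted p = 0.000485). Esrrg, which drives oxidative fibre genes, rose by 1.16 at 20 months and was also called upward at 28 months (adjusted p = 0.00156, limma). Foxo3 rose by 0.95 and 0.65, and its 28-m call held in 20 of 25 alternatives and was lost without 2-m library 3, 28-m library 1 or 28-m library 3. Mef2a rose by 0.67 and 0.68, and Nr4a3 at 20 months by 1.58. Nr4a1, an orphan receptor induced by activity, was lower at 28 than at 20 months by 0.75 (adjusted p = 0.00273, limma).

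Among genes listed as markers of lost nerve supply, the calls were upward. Of 16 tested, 10 rose and none fell at 20 months, where 9.42% of all tested genes rose, and 14 rose and none fell at 28 months, where 7.53% did, with medians of 0.78 and 1.32. Of the 6 not called at 20 months, Myog, Gadd45a, Chrne and Myh8 gave values of -0.26 to -0.08. Dach2, which is not a gene that nerve loss raises, was among the upward calls (1.66 and 1.41). Sln, a brake of the calcium pump, rose by 3.67 and 5.42. Myh3, the embryonic myosin, rose by 1.89 and 2.51, Runx1, a transcription factor, by 1.32 and 2.76, and Chrng, the fetal acetylcholine receptor subunit, by 2.82 and 3.11, a call held in 12 and 16 of 24 alternatives. Gadd45a and Myog were higher at 28 than at 20 months by 1.33 and 1.26, the former in all 25 alternatives and the latter (adjusted p = 0.0473, limma) in 15. Between 28 and 20 months the list's median was 0.46, with 2 genes called upward, while Ostn gave -0.35 and was not called. Ostn stood higher at both older ages, as did slow-fibre and most denervation genes, and whether it follows either was not tested.

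Other secreted factors of muscle were called in both directions. Of 46 tested, 6 rose and 9 fell at 20 months, beside 9.42% and 7.13% of all tested genes, and 4 rose and 5 fell at 28 months, beside 7.53% and 6.24%, with medians of -0.05 and 0.09. The chemokines Cxcl10 and Cx3cl1, which draw T cells and monocytes, rose by 3.27 and 1.45 at 20 months and by 5.10 and 2.35 at 28 months. Igf1, the growth factor of muscle and liver, fell by 1.48 and 1.09, and Sparc, a matrix protein of fibroblasts and bone, by 1.81 and 1.77, the latter alongside the fibroblast markers.

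The capture of methylated DNA gave a separate readout at the gene starts. Fragments that carry methylated CpGs bind the methyl-CpG-binding domain (MBD), and their reads were counted in 500-bp bins. The values are the mean normalized count per bin over the bins within 1 kb of the annotated start, the most upstream one for Bdnf, from 1 pool per age, so the intervals given cover counting error only and no test between ages was made. Log2 ratios of levels were taken after adding 1 to each. Median levels over 12324 tested genes with a gene model were 7.10, 6.74 and 9.05 in 2-m, 20-m and 28-m muscle. The 28-m muscle pool had a narrower spread between promoters, with quartiles of 5.86 and 13.4 against 2.91 and 14.0 at 2 months. In it the genes at or under the lower quartile at 2 months had a median log2 ratio of 1.25 to 2 months, and those at or above the upper quartile one of -0.47.

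Gdf15, Apln and Fgf21 had the most captured DNA in muscle, and all 3 had less in the 28-m pool. Gdf15 went from 54.6 at 2 months to 44.8 and 26.1 at 20 and 28 months, Apln from 35.3 to 32.8 and 18.4, and Fgf21 from 22.9 to 22.6 and 15.8. The ratios of 28 to 2 months were 0.479 (95% exact counting interval 0.399 to 0.574), 0.520 (0.416 to 0.649) and 0.689 (0.534 to 0.891). Their log2 values with 1 added were -1.03, -0.91 and -0.51, and -0.60, -0.48 and -0.0870 when rescaled to the same sum. In T cells the same starts had more at 28 months, with ratios of 1.21, 1.40 and 1.58. On the log2 scale with 1 added these were 0.28, 0.48 and 0.64, beside a median of 0.25 over the tested genes. Rescaled to the same sum they were -0.0448, 0.16 and 0.33, beside -0.0181, so the direction of Gdf15 in T cells turned. Il15, Metrnl and Il6 began under the lower quartile of muscle promoters and had more at 28 months. Il15 went from 1.46 to 2.02 and 4.84, Metrnl from 2.55 to 5.05 and 10.7, and Il6 from 2.55 to 2.36 and 5.61. Of the 7 members beyond the quartiles, these 6 differed in the direction of the median of the promoters on their side, while Lif, which also began above the upper quartile, went from 14.6 to 15.8, against it. With 2-kb windows the log2 ratio of Lif turned from 0.11 to -0.40.

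Ostn, the gene with the large rise in RNA, had little captured DNA at its start, 3.82, 7.75 and 5.10 in 2-m, 20-m and 28-m muscle. The 20-m level was 2.03 times that of 2 months (95% exact counting interval 1.19 to 3.58), on 46 against 21 reads, while the 28-m ratio of 1.33 had an interval of 0.768 to 2.38. Fndc5 stood at 11.8, 11.1 and 11.6, Lif stood at 15.0 in the 20-m pool, and Bdnf went from 3.09 to 2.53 and 8.16. In T cells, Bdnf rose from 5.08 to 22.2 and 31.2, a ratio of 6.15 at 28 months (95% exact counting interval 3.97 to 9.88), and Il6 from 2.44 to 14.1 and 9.52. Over the 10 members the median log2 ratio in muscle was -0.05 at 20 months and 0.23 at 28 months, beside -0.08 and 0.30 over the tested genes. The 20-m value of the members turned to 0.0474 with 2-kb windows and to 0.0531 when rescaled to the same sum.

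**Figure D5:**
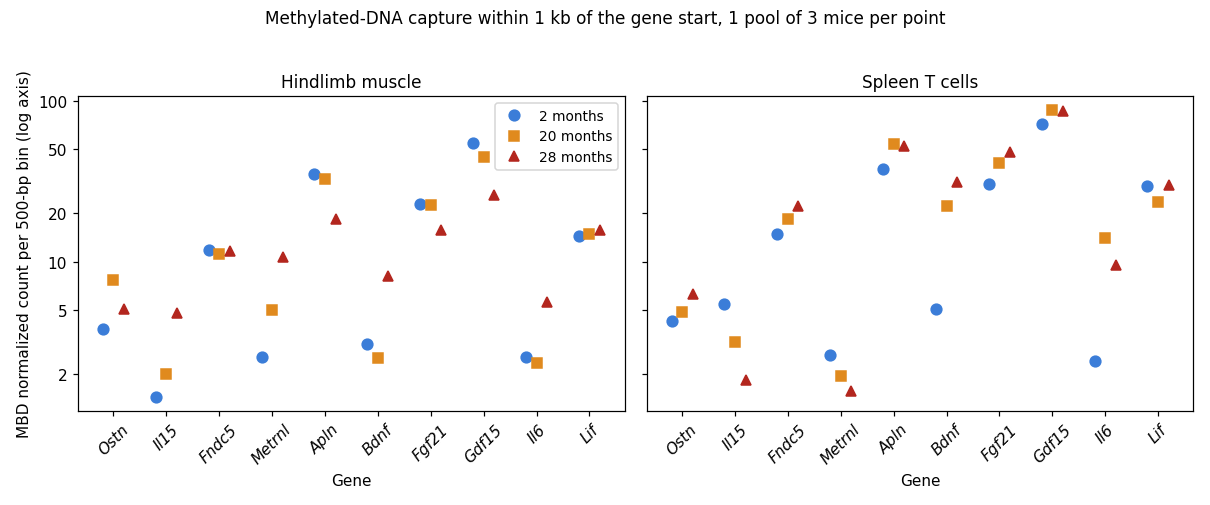
Mean MBD normalized count per 500-bp bin within 1 kb of the gene start (y axis, log) for each of the 10 genes in hindlimb muscle (left) and spleen T cells (right); each point is 1 pool of 3 mice. In muscle the highest starts (Gdf15, 54.6 at 2 months) were lower at 28 months and the lowest (Il15, 1.46 at 2 months) were higher, and in T cells Bdnf stood at 5.08, 22.2 and 31.2.

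The sequence before the start shows how many CpGs the capture could bind there. The 250 bases before the annotated start are given below for 5 of the starts, with each CpG in capitals. They are the 3 with the most captured DNA in muscle, Metrnl, whose log2 ratio at 28 months was the largest of the members in muscle (1.72), and Bdnf, whose ratio was the largest in T cells (2.41). The sequences are from the RefSeq promoter table of GRCm38.p6, which held 8 of the 10 members. Apln (chrX:48034854-48035103), Gdf15 (chr8:70632457-70632706) and Fgf21 (chr7:45615491-45615740) are on the minus strand, and Metrnl (chr11:121702177-121702426) and Bdnf (chr2:109674450-109674699) on the plus strand, each written 5′ to 3′ on its own strand.
Gdf15: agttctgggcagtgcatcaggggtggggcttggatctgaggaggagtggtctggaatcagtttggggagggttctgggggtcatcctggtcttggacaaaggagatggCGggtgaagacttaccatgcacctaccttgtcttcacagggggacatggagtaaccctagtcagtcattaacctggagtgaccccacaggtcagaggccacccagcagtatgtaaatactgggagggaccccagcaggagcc
Apln: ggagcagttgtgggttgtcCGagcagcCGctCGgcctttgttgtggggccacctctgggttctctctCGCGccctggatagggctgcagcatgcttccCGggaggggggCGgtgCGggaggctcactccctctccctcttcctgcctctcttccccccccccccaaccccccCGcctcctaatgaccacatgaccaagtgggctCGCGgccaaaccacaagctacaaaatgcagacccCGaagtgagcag
Fgf21: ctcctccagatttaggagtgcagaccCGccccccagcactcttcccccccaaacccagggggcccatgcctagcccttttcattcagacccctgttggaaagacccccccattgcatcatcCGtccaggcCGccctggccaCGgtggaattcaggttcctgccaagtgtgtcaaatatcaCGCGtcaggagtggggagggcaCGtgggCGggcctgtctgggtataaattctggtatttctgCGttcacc
Metrnl: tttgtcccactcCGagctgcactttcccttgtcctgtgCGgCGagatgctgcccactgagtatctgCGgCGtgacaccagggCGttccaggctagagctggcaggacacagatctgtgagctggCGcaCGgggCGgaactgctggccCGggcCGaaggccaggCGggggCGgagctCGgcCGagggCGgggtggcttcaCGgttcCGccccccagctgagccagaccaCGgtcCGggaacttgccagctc
Bdnf: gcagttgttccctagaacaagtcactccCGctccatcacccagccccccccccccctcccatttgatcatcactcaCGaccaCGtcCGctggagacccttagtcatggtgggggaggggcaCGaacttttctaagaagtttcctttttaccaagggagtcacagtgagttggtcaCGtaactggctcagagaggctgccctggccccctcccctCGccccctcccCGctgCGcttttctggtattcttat
Gdf15 had 1 CpG in these bases, Fgf21 and Bdnf 9 each, Apln 12 and Metrnl 20, beside a median of 6 over 32851 promoters of the same length. CG is its own reverse complement, so both strands hold the same sites. The most captured start, Gdf15, thus had the fewest CpGs in this stretch, while the bins counted reach 1 kb to either side and hold others. Fndc5, with 38 CpGs, had more than 98.1% of promoters.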

How the data were processed

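RNA-seq libraries of hindlimb muscle came from individual mice, and each MBD-seq library from the pooled DNA of 3 mice. The authors aligned RNA reads with Hisat2 and MBD-seq reads with Bowtie2 to mm10, counted them per refSeq gene with htseq-count or per 500-bp bin with bedtools, and divided the counts by a DESeq2 size factor. The deposited signal values are therefore normalized read counts, and every value (100%) was a whole multiple, within 0.001 read, of the step of 1 read, which gave back the reads. The 5 rows of the counter's own totals, 37.9 to 47.7% of a library's reads, were left out.

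The members and the gene lists were chosen with earlier results of these data known. The replicates are separate mice. One limma 3.58.1 fit (trend, R 4.3.3) took all 9 libraries and the 13178 genes with a mean of at least 10. Each value was the log2 of 1 plus the normalized count and the model held age alone, and p-values were adjusted over these genes. A call is an adjusted p under 0.05. The log2 scale with 1 added understates the change of low genes. The smallest exact permutation p was 0.1 for 3 against 3 libraries. Apart from the members and their receptors, up to 4 genes per list and comparison were named, those with the largest change among the called ones, and 2 genes that the rule names are not reported here. Gene positions and exon lengths came from RefSeq on GRCm38.p6, which matched 21533 of 23420 genes. Level over exon length was used only to compare genes, and 93.5% of the tested genes had a length.

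The alternatives were pseudocounts of 0.1 and 5, no filter, means of at least 1 and 50, scaling each library to an equal total, quantile normalization, a block for the replicate number, a batch term for libraries numbered 3, leaving out the age not compared, the count models of DESeq2 1.42.0 and edgeR 4.0.16 applied to recovered reads, leaving out each library, and for MBD-seq windows of 2 kb and 250 bp. Chosen after seeing the data were edgeR and DESeq2 without the filter, the same sum without Rn45s, and libraries numbered 1 and 2 only. On simulated counts of the 13178 genes for 20 against 2 months, the fit called 48 of 96 genes changed 2-fold and 94 of 104 changed 4-fold. The muscle samples hold a repeated capture that the columns do not name, which was not analysed here.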

Additional observations from a re-analysis of the deposited data

Results flagged for a closer look

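The starts of 4 genes had captured DNA that differed from 2 to 28 months in opposite directions in muscle and in T cells, with both counting intervals on opposite sides of no change. The log2 ratio, with 1 added to each level, was -0.51 in muscle and 0.64 in T cells for Fgf21, -1.03 and 0.28 for Gdf15, 1.25 and -1.19 for Il15, and -0.91 and 0.48 for Apln. Il15 rests on 8 and 38 muscle reads and 27 and 7 T-cell reads at 2 and 28 months. In muscle all 4 differed in the direction of most promoters of their starting level. Of promoters at or under the lower quartile at 2 months, 98.5% had more at 28 months. Of those at or above the upper quartile, 11.2% did. Each value comes from 1 pool, and no test of muscle against T cells was possible, so whether the 2 tissues differ was not tested. Rescaled to the same sum, the median ratio over tested genes moved from 0.30 to 0.68 in muscle and from 0.25 to -0.02 in T cells. So rescaled, Gdf15 gave -0.60 in muscle and -0.0448 in T cells, no longer in opposite directions, and Fgf21 -0.0870 and 0.33. The values were 1.58 and -1.44 for Il15 and -0.48 and 0.16 for Apln. For Il15, 2-kb windows gave 0.39 in muscle and -0.33 in T cells, and 250-bp windows 0 in T cells.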

How the results depend on the processing

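Ostn was called against 2 months in every alternative run, and no member was called between 28 and 20 months in any. From 2 to 20 months the number of members called was 1, and it was 2 with quantile normalization, with only the groups compared, with edgeR without the filter, with DESeq2 and by the rule of a fold change over 2 with an unadjusted p under 0.05, and 3 with a batch term for the libraries numbered 3. The additional members were Apln, Il15 or Metrnl. With a library left out it was 1 to 2. With both older ages together 2 were called, but 1 without the filter, with a mean of at least 1, rescaled to the same sum with or without Rn45s, with edgeR, with numbers 1 and 2 only and by the fold rule, and 1 to 2 with a library left out, since Il15 lost its call. DESeq2 called 3, Apln added, and edgeR and DESeq2 without the filter called 2, Apln in place of Il15. The cause was not tested.

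With the replicate number as a block, 2 members (Ostn and Il15) were called from 2 to 20 months and 3 (Ostn, Il15 and Apln) with both older ages together. The numbers were not taken as pairs, since 3 of 9 same-number pairs had a Pearson r above 0.1 (range -0.04 to 0.16). All 3 joined libraries numbered 3 (r 0.109, 0.150 and 0.161), those with the lower share of Rn45s. Yet 7 of 9 libraries correlated best with one of their own number.

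Values near 0 changed sign, none of them called. With libraries numbered 1 and 2 only, Fndc5 gave 0.00226 at 28 months, and between 28 and 20 months Il15 gave 0.0475 and Apln -0.29. Fndc5 gave 0.00699 at 28 months rescaled without Rn45s, and Apln -0.0224 between 28 and 20 months with quantile normalization. With a library left out, Fndc5 ran from -0.0117 to 0.40 at 20 months, from -0.22 to 0.19 at 28 months and from -0.12 to 0.29 at both ages, Apln from -0.26 to 0.69 between 28 and 20 months, and Bdnf from -0.16 to 0.36 at 20 months.

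Over all genes, rescaling to the same sum cut the calls from 2181 to 586 at 20 months, from 1814 to 554 at 28 months, from 50 to 24 between 28 and 20 months and from 2649 to 796 at both older ages. Without Rn45s in that sum, 66.8% of the calls at 28 months were higher in place of 54.7%, and 74.1% in place of 56.0% between 28 and 20 months. Numbers 1 and 2 only gave 1099, 712, 11 and 1327 calls. Between 28 and 20 months the count was 138 with the block, 103 with the batch term, 76 with only the groups compared, 250 with edgeR without the filter, and 228 and 215 with DESeq2 with and without it. Leaving out a library gave 1081 to 2231 calls at 20 months, 963 to 1846 at 28 months, 14 to 88 between them and 1646 to 2850 at both ages.

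The median promoter ratio of the members in muscle at 20 months turned to 0.0474 with 2-kb windows and 0.0531 rescaled to the same sum. At 28 months it was 0.12 with 2-kb windows, 0.20 with 250-bp windows and 0.62 rescaled, while the median over tested genes, 0.30, became 0.0235 with 2-kb windows, 0.81 with 250-bp windows and 0.68 rescaled. In T cells the median of the members at 28 months was 0.26 with 2-kb windows, 0.62 with 250-bp windows and 0.18 rescaled, beside 0.28, 0 and -0.0181 over tested genes, and their 20-m value was 0.00801 rescaled, against 0.29. Depth left Fgf21, Gdf15, Il6 and Lif undecided.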

Other observations

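As a description over the 9 libraries, which share the 3 age groups, the tested genes whose log2 values followed the other members most closely were Rin3 for Il15 (Pearson r 0.971), Cep85 for Fndc5 (0.969), Arf5 for Metrnl (0.960), Chst14 for Apln (0.945) and Efr3b for Bdnf (0.924). Acaa2 and Slc25a20, an enzyme and a carrier of mitochondrial fatty acid oxidation, were the next after Cep85 for Fndc5 (0.946 and 0.935). Acaa2 averaged 5189, 5629 and 4936 normalized counts at 2, 20 and 28 months. Among the members themselves, Ostn had r = 0.759 with Il15, -0.718 with Metrnl, -0.678 with Apln and -0.00362 with Fndc5. Fndc5 and Bdnf had r = 0.661.

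Marrow and B-cell genes differed between single mice. The 7 marrow markers with a row summed to 4469 normalized counts in 2-m library 1 and to 14.9 to 69.2 in the other 8 libraries. In 2-m library 1 Fgf21 had 3 of its 4 reads. The 5 B-cell and plasma-cell markers with a row summed to 34.7 to 181 over the 9 libraries, and none of them was called at either age. Of the 5 Schwann-cell markers 1 fell at 20 months, and of the 4 satellite-cell markers tested none was called at 20 or at 28 months. Of 7 macrophage markers 2 fell at 20 months, and of 6 adipocyte markers 4 fell at 20 months and 1 at 28 months. Of all tested genes, 16.6% and 13.8% were called at 20 and 28 months, and 7.13% and 6.24% fell.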
